A study of Mus musculus with 6 samples.

Results

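Lamins and the proteins that join the nucleus to the cytoskeleton were followed through the differentiation of C2C12 myoblasts, an established mouse muscle cell line whose cells withdraw from the cell cycle and fuse into multinucleated myotubes. The 10 genes were taken by symbol from the deposited count tables: the lamins *Lmna*, *Lmnb1* and *Lmnb2*, the inner nuclear membrane proteins *Emd*, *Lbr* and *Tmpo*, the nesprins *Syne1* and *Syne2*, and the SUN proteins *Sun1* and *Sun2*. They are 10 of the 54525 gene rows listed, and all 10 were among the 16290 genes that passed the filter on low counts. RNA-seq had been performed on 3 wild type, untreated cultures at day 0 (D0, myoblasts in growth medium with fetal bovine serum) and 3 at day 5 (D5, after 5 days in medium with horse serum). The labels give the same cell type, mouse muscle myoblasts, for all 6 samples and do not say whether the cultures of a group were grown separately, so the p-values measure the spread between these 6 libraries, which may be technical.

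The nuclear lamina is a meshwork of intermediate filaments under the inner nuclear membrane. A-type lamins (lamin A and lamin C, both from *Lmna*) can move through the nucleoplasm and bear mechanical load, whereas B-type lamins (from *Lmnb1* and *Lmnb2*) keep a lipid anchor and stay at the membrane. LINC complexes cross the nuclear envelope: SUN proteins of the inner membrane bind the KASH tails of nesprins in the outer membrane, and nesprins hold actin, microtubule motors and, in muscle, centrosomal proteins. Mutations in *LMNA* and *EMD*, the human genes for lamin A/C and emerin, cause Emery-Dreifuss muscular dystrophy, and myotubes move and space their nuclei through nesprins.

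The libraries held 36555048 to 40895840 counts on genes at D0 and 25449759 to 25811300 at D5. Levels are given as CPM, counts scaled to a library of 1000000 after scaling with edgeR's TMM factors, and differences of D5 from D0 were tested by the quasi-likelihood method of edgeR, with p adjusted after Benjamini and Hochberg over all genes tested. The labels were checked against marker genes with TMM scaling. All 10 genes of a myotube list, among them *Ttn*, *Myh3* and *Acta1*, were higher at D5 past the adjusted threshold of 0.05. Their median log2 fold change was 7.60. All 12 genes of a proliferation list were lower, with a median of -4.97. Of all genes tested, 42.2% were called higher and 40.8% lower. On counts not corrected for library depth, *Des* of the myotube list was at 0.037 and not past the threshold (edgeR adjusted p = 0.599). Endothelial markers summed to 3.31 to 3.59 CPM at D0 and 0.517 to 0.884 at D5, macrophage and leukocyte markers to at most 3.39 CPM and adipocyte markers to at most 0.285 CPM in any library, and *Ptprc*, *Adgre1*, *Adipoq* and *Rbfox3* had at most 1 count in any library. Of the 12 endothelial, macrophage, leukocyte and adipocyte markers 3 passed the filter, *Kdr*, *Tek* and *Cd68*, all lower at D5, and their part in the results was not tested. In bulk RNA, fewer cells of a type and less RNA per cell cannot be told apart, which holds for every value below.

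Expression of 8 of the 10 genes was decreased in myotubes and that of 2, *Syne1* and *Sun1*, was increased, all past the threshold with TMM scaling. The sign of *Sun1* turned when the libraries were not scaled or were scaled to spike-ins. Values without scaling are not corrected for the shallower D5 libraries and had a median of -0.68 over all genes, so they lie lower for all 10 genes. With the spike-ins 5 were called lower and 0 higher, the calls of *Lmna*, *Lmnb2*, *Sun2*, *Syne1* and *Sun1* being lost. Among all genes tested 40.8% were called lower, 42.2% higher and 82.9% in either direction, so a call by itself was common at this depth. The size of the changes set the genes apart from each other: log2 fold changes ran from -4.41 for *Lmnb1* to 1.42 for *Syne1*, with a median of -0.72 against 0.0022 over all genes. A change of at least 2-fold past the threshold was found for 5 of the 10, *Lmnb1*, *Syne2*, *Tmpo*, *Emd* and *Syne1*, and for 35.3% of all genes. In none of the 10 did the libraries of the groups overlap. All D5 libraries lay under all D0 libraries for 8 of them, as in 41.1% of all genes, and above them for 2, as in 42.2%. Summed over the 10 genes, the level was 2829 to 2838 CPM in the D0 libraries and 1428 to 1463 CPM in the D5 libraries.

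**Figure D1:**
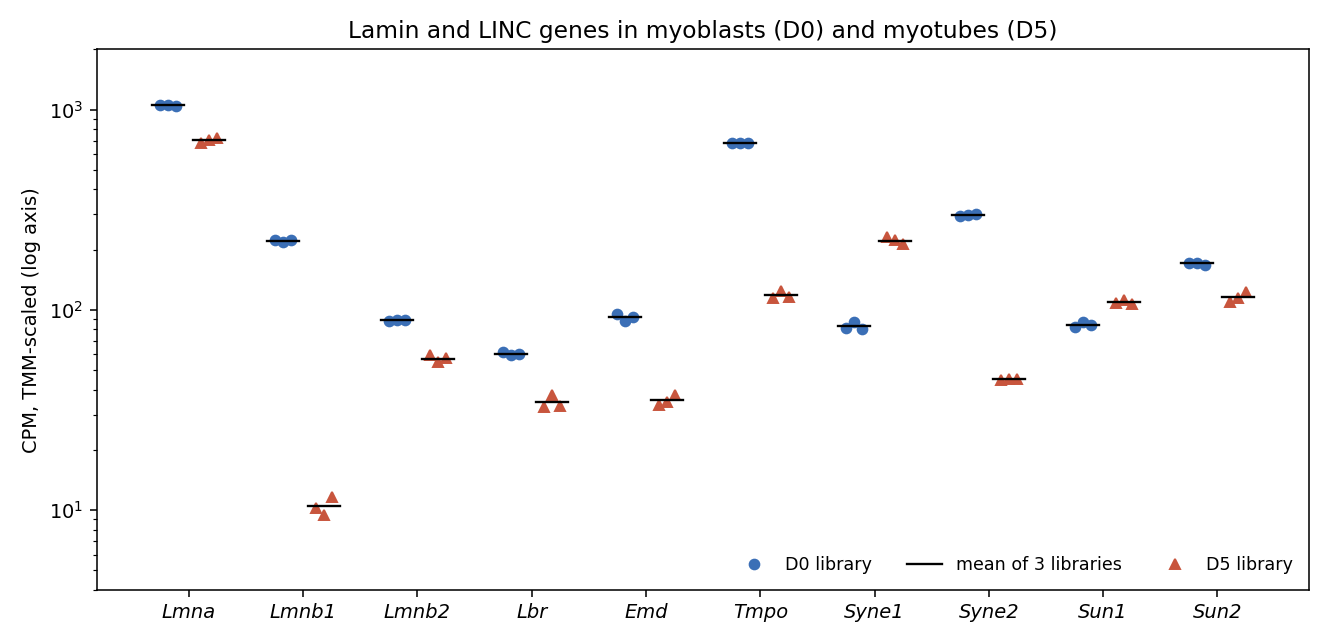
CPM after TMM scaling (vertical axis, log scale) of the 10 lamin and LINC genes (horizontal axis) in each D0 library (circles) and D5 library (triangles), with the mean of 3 libraries as a line. The largest gap on this axis is that of Lmnb1, from 222 to 10.4 CPM, and Syne1 and Sun1 are the genes whose D5 libraries lie above their D0 libraries. For Sun1 this holds with TMM scaling but not with the spike-ins or without scaling, which leaves the shallower depth of D5 in the values.

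Among the lamins, the level of the B-type gene *Lmnb1* fell the most, and *Lmna* and *Lmnb2* stood at 66.8% and 64.5% of their D0 levels with TMM scaling. With the spike-ins the log2 fold changes of *Lmna* and *Lmnb2* were -1.15 and -1.21 and not past the threshold. *Lmnb1* (ENSMUSG00000024590.8) lies on chromosome 18 between 56707813 and 56753424 in the GRCm38 build, the build of all positions given here. It had 8372, 9213 and 8983 counts in D0 replicates 1, 2 and 3 and 258, 232 and 290 counts in D5 replicates 1, 2 and 3. This corresponds to 223, 219 and 223 CPM at D0 and to 10.3, 9.41 and 11.7 CPM at D5. The D0 libraries lay close together and the D5 libraries far below them, with a spread of 10.8% of the mean (coefficient of variation, SD over mean) at D5 against 1.08% at D0. The level at D5 was 4.71% of that at D0, a log2 fold change of -4.41 (SE 0.050, edgeR adjusted p = 2.6e-34). Of all genes tested, 1.57% had a lower log2 fold change.

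*Lmna*, the gene of lamin A and lamin C (ENSMUSG00000028063.15, chromosome 3 from 88480147 to 88509956), was the most highly expressed of the 10 at both times. It had 39430, 44380 and 42289 counts at D0 and 17193, 17385 and 17899 at D5, which is 1052, 1055 and 1049 CPM at D0 and 684, 705 and 719 CPM at D5. The groups were well separated, with means of 1052 ± 2.77 and 703 ± 17.6 CPM (SD over 3 libraries each) and a log2 fold change of -0.58 (SE 0.032, edgeR adjusted p = 1.1e-16). Reads of lamin A and lamin C transcripts are counted together, so their proportion is not given by these data. Even after the fall, 99.1% of the genes tested had a lower mean CPM than *Lmna* at D5, against 99.6% at D0.

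*Lmnb2*, the second B-type lamin gene (ENSMUSG00000062075.13, chromosome 10 from 80901203 to 80918245), had 88.0, 89.1 and 88.6 CPM at D0 and 59.4, 54.7 and 57.3 CPM at D5. The 3 D5 libraries were all lower than the 3 D0 libraries, with 64.5% of the D0 level kept (log2 fold change -0.63, 95% interval -0.71 to -0.55, edgeR adjusted p = 1.9e-15). This interval overlaps that of *Lmna*, from -0.65 to -0.52, and lies far from that of *Lmnb1*, from -4.51 to -4.31.

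The lamin transcripts therefore differed in composition between myoblasts and myotubes. To compare levels between genes, CPM was divided by the exonic length of each gene in kilobases. Of the summed lamin level per kilobase, *Lmna* made up 65.2%, 65.6% and 65.2% in the D0 libraries and 87.1%, 88.3% and 87.7% in the D5 libraries. The share of *Lmnb1* was 27.1% ± 0.264 at D0 and 2.57% ± 0.239 at D5 (SD, n = 3 each), and that of *Lmnb2* was 7.50% ± 0.0535 and 9.72% ± 0.516. At D0 *Lmnb1* thus stood above *Lmnb2* in every library, and at D5 below it in every library. The summed lamin level was 275 to 276 CPM per kilobase at D0 and 134 to 140 at D5.

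**Figure D2:**
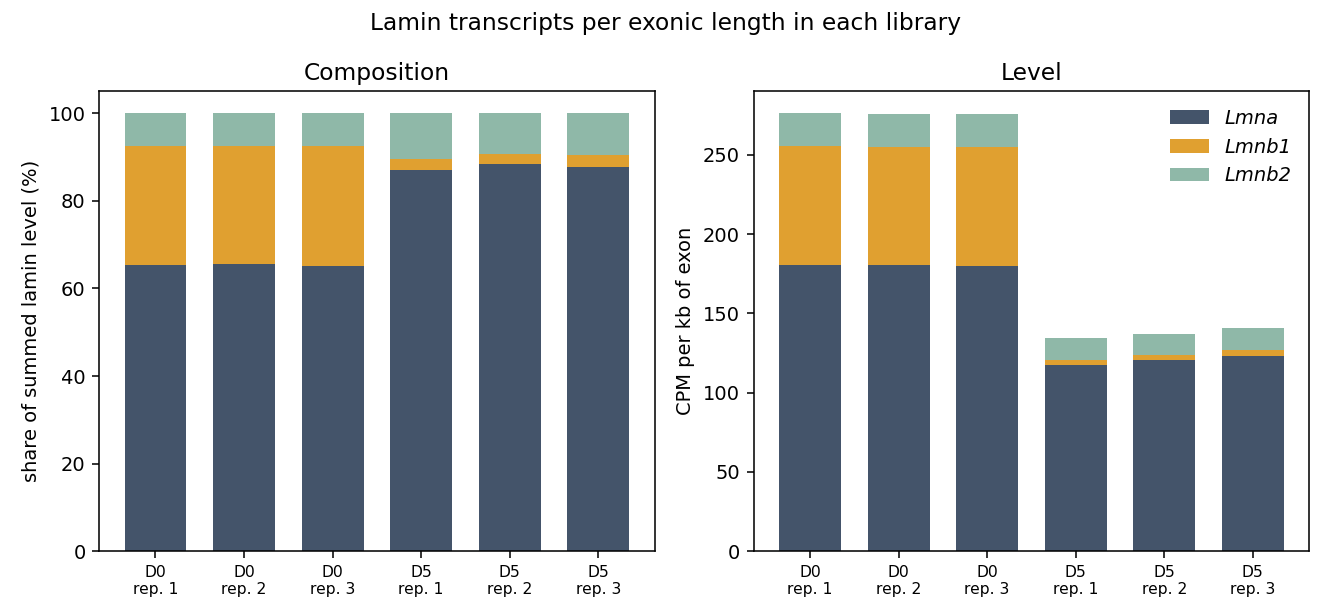
Lamin transcripts in each library (horizontal axis), as the share of the summed level per exonic length (left, percent) and as CPM per kilobase of exon (right). The Lmnb1 segment shrinks from about 27.1% to 2.57% of the sum while Lmna grows from about 65.4% to 87.7%, and the whole bar is lower in all 3 D5 libraries.

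The inner nuclear membrane genes *Emd*, *Tmpo* and *Lbr* were all lower in myotubes, by different amounts. *Tmpo* encodes the LAP2 proteins, LEM domain proteins that bind lamins and the chromatin protein BAF (ENSMUSG00000019961.17, chromosome 10 from 91147571 to 91181315). It had 25507, 28816 and 27569 counts at D0 and 2886, 3081 and 2894 counts at D5, or 680, 685 and 684 CPM against 115, 125 and 116 CPM. With 17.4% of its D0 level left (log2 fold change -2.53 with SE 0.036, edgeR adjusted p = 6.4e-32), *Tmpo* went from rank 3 of the 10 genes in level per kilobase at D0 to rank 6 at D5. Its annotated transcripts, 13 in number and including those of the nucleoplasmic LAP2 alpha, were counted together.

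*Emd* encodes emerin, another LEM domain protein (ENSMUSG00000001964.14, chromosome X from 74254687 to 74261548). It had 95.4, 88.2 and 91.9 CPM at D0 and 33.7, 34.7 and 37.6 CPM at D5. The groups were far apart, with D5 replicate 3 the highest of its group, and 38.5% of the D0 level was left (log2 fold change -1.38 with SE 0.045, edgeR adjusted p = 1.6e-22). Of the 50-base sequences in *Emd* transcripts, 16.2% also occur in transcripts of other annotated genes, and 13.6% of its exonic length is shared with a gene on the same strand, so part of its counts is uncertain.

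*Lbr* encodes the lamin B receptor, which binds B-type lamins and heterochromatin protein 1 and also has sterol reductase activity (ENSMUSG00000004880.11, chromosome 1 from 181815335 to 181843046). Its level was 61.5, 59.8 and 59.9 CPM at D0 and 32.7, 37.6 and 33.2 CPM at D5, with D5 replicate 2 the highest of its group and still well below D0. The mean at D5 was 57.1% of that at D0 (log2 fold change -0.81 with SE 0.047, edgeR adjusted p = 5.9e-16). Of its exonic length, 9.24% overlaps other genes that lie on the opposite strand, and the strand setting of the counting is not given in the sources used here.

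Within each LINC family 1 gene was higher and 1 lower in myotubes, which for *Sun1* depended on the scaling (negative without scaling and with the spike-ins) and for *Syne1* and *Sun2* was not past the threshold with the spike-ins, and the nesprins changed the most. The sequences before their starts are shown because *Syne1* with *Syne2* and *Sun1* with *Sun2* are the paralog pairs compared here. Each run holds the 250 bases before a RefSeq start on GRCm38.p6, 5′ to 3′ on the strand of the gene. Capitals mark motifs found on either strand: the E-boxes CAGCTG and CACCTG, which bHLH factors such as MyoD and myogenin can bind, the CCAAT box, the cell cycle homology region TTTGAA, the M-CAT motif CATTCC, and an E2F site, taken as TTTCCCGC, TTTGGCGC, TTTGCCGC or TTTCGCGC. A motif on the opposite strand appears as its reverse complement, so that the CCAAT box can read ATTGG. No run printed here holds an E2F site, and no motifs overlap in them.
Syne1, start 1, chr10:5550693-5550942, minus strand: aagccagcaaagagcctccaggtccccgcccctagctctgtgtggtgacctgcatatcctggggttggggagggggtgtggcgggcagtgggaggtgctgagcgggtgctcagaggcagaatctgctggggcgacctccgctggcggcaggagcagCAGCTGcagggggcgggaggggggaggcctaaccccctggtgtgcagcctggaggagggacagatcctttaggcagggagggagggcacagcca
Syne1, start 3, chr10:5069064-5069313, minus strand: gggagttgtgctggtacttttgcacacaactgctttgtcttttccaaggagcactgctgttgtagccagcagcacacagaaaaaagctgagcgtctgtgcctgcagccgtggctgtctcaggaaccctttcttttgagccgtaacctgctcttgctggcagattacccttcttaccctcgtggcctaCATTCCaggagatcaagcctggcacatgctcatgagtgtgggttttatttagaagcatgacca
Syne2, chr12:75818068-75818317, plus strand: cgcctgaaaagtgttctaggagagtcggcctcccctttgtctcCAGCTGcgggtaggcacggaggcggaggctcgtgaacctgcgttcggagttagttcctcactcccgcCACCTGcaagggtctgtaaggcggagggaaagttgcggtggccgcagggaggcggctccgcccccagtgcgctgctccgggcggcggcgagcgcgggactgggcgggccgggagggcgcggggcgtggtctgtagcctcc
Sun1, start 1, chr5:139200387-139200636, plus strand: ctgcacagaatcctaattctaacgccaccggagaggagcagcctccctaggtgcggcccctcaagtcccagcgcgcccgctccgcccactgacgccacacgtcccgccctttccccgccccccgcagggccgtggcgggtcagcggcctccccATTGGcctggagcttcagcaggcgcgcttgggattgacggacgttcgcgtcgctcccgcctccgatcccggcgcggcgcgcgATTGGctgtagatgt
Sun2, chr15:79742537-79742786, minus strand: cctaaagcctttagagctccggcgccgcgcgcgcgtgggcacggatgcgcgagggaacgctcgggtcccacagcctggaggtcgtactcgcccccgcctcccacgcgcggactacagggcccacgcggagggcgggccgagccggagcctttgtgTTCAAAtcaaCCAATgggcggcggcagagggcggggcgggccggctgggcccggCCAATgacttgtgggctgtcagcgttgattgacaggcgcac

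The first start of *Syne1* holds 1 E-box CAGCTG, and that of *Syne2* holds 1 CAGCTG and 1 CACCTG, so the nesprin gene that rose and the one that fell both carry the letters of an E-box. Of 32851 RefSeq starts of all genes, 13.0% hold CAGCTG and 17.2% hold CACCTG in the same window. The first starts of *Sun1* and *Sun2* each hold 2 CCAAT boxes, a motif found at 33.8% of all starts, and *Sun2* also holds the homology region TTTGAA, found at 16.0%. The third start of *Syne1*, from which 48.1 kilobases or 9.07% of the gene remain, lies near the end that encodes the KASH tail, and it holds 1 M-CAT motif, found at 12.6% of all starts. Of the starts not printed, those of *Lmna* (second), *Emd* and *Sun1* (second) hold 1 CCAAT box and those of *Lbr* and *Tmpo* (first) hold 2. TTTGAA also occurs at *Lbr* and the second *Tmpo* start, CACCTG at the second starts of *Sun1* and *Lmnb2*, and the M-CAT motif at *Emd* and the second *Tmpo* start. The E2F letters, found at 1.86% of all starts, occur before the second *Tmpo* start. For *Lbr*, both *Tmpo* starts and the second *Syne1* start, the 50 bases after the start were not found in an annotated transcript of the gene. For the other starts they were. Starts were found for 9 of the 10 genes, all but *Lmnb1*, and 15 starts were searched. These matches are descriptions of letters in a window.

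*Syne1* encodes nesprin-1, the nesprin whose short alpha form gathers centrosomal proteins around the nuclei of myotubes (ENSMUSG00000096054.3, chromosome 10 from 5020917 to 5551482, with up to 146 exons in a transcript). It had 3050, 3645 and 3233 counts at D0 and 5787, 5483 and 5300 counts at D5, although the D5 libraries were shallower. In CPM these are 81.4, 86.6 and 80.2 at D0 and 230, 222 and 213 at D5, with every D5 library more than 2-fold above every D0 library. The level rose 2.68-fold (log2 fold change 1.42 with SE 0.037, edgeR adjusted p = 5.3e-25), and 14.1% of all genes had a higher log2 fold change. With scaling to the spike-ins the value was 0.87 and not past the threshold (edgeR adjusted p = 0.187).

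*Syne2* encodes nesprin-2 (ENSMUSG00000063450.14, chromosome 12 from 75818134 to 76110926). It had 11098, 12509 and 12088 counts at D0 and 1119, 1112 and 1125 at D5, or 296, 297 and 300 CPM against 44.5, 45.1 and 45.2 CPM. It was the steadiest gene at D5, with a coefficient of variation of 0.803%, and kept 15.1% of its D0 level (log2 fold change -2.73 with SE 0.036, edgeR adjusted p = 9.6e-33). The giant and the short transcripts of both nesprins were counted together, so a change in the mixture of isoforms cannot be read from these counts.

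*Sun1* and *Sun2* encode the SUN proteins that hold nesprins at the envelope of most somatic cells. *Sun1* (ENSMUSG00000036817.14, chromosome 5 from 139200637 to 139249840) had 81.8, 86.6 and 83.6 CPM at D0 and 109, 112 and 108 CPM at D5. This 1.30-fold rise was the smallest change among the 10 genes (log2 fold change 0.38 with SE 0.036, edgeR adjusted p = 5.1e-11), and its sign depended on the scaling of the libraries, turning to -0.30 without scaling and to -0.17 with scaling to the spike-ins. *Sun2* (ENSMUSG00000042524.14, chromosome 15 from 79724070 to 79742536) had 172, 172 and 168 CPM at D0 and 109, 115 and 122 CPM at D5, that is 67.7% of its D0 level (log2 fold change -0.56 with SE 0.037, edgeR adjusted p = 8.3e-15). The D5 libraries of both genes lay between 108 and 122 CPM, but CPM is not corrected for exonic length. Per kilobase of exon the genes stayed apart at D5, with means of 21.3 for *Sun2* and 14.4 for *Sun1*. The lengths used, 7596 bases for *Sun1* and 5420 for *Sun2*, count every annotated exon, so the size of this gap depends on them.

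Ratios of 2 genes within a library do not depend on how libraries are scaled, and they showed the same shifts. Levels per kilobase were used, and 6 pairs were compared. The ratio of *Syne1* to *Syne2* was 0.181, 0.192 and 0.177 in the D0 libraries and 3.41, 3.26 and 3.11 in the D5 libraries, a 17.8-fold rise (difference of the log2 ratios 4.15) that moved *Syne1* from below to above *Syne2*. The ratio of *Lmna* to *Lmnb1* was 2.39, 2.44 and 2.39 at D0 and 33.8, 38.0 and 31.3 at D5, a 14.2-fold rise. The ratio of *Lmnb1* to *Lmnb2* went from between 3.56 and 3.67 to between 0.249 and 0.294. The ratio of *Sun1* to *Sun2* rose 1.93-fold, from 0.339, 0.359 and 0.355 to 0.708, 0.694 and 0.628. Per kilobase, *Sun2* thus stayed the higher of the pair in every library. The ratio of *Emd* to *Lbr* fell from between 2.79 and 2.93 to between 1.75 and 2.14.

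The groups did not overlap in these 5 ratios, and the exact two-sided permutation test over the 6 libraries gave p = 0.1 for each, the smallest that 3 against 3 allows, or 0.12 after Benjamini-Hochberg adjustment over the 6 pairs. The ratio of *Lmna* to *Lmnb2* was between 8.69 and 8.77 at D0 and between 8.45 and 9.45 at D5, so the groups overlapped (difference of the log2 ratios 0.050, exact permutation p = 0.4). Leaving out each library in turn kept this difference between 0.017 and 0.098.

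**Figure D3:**
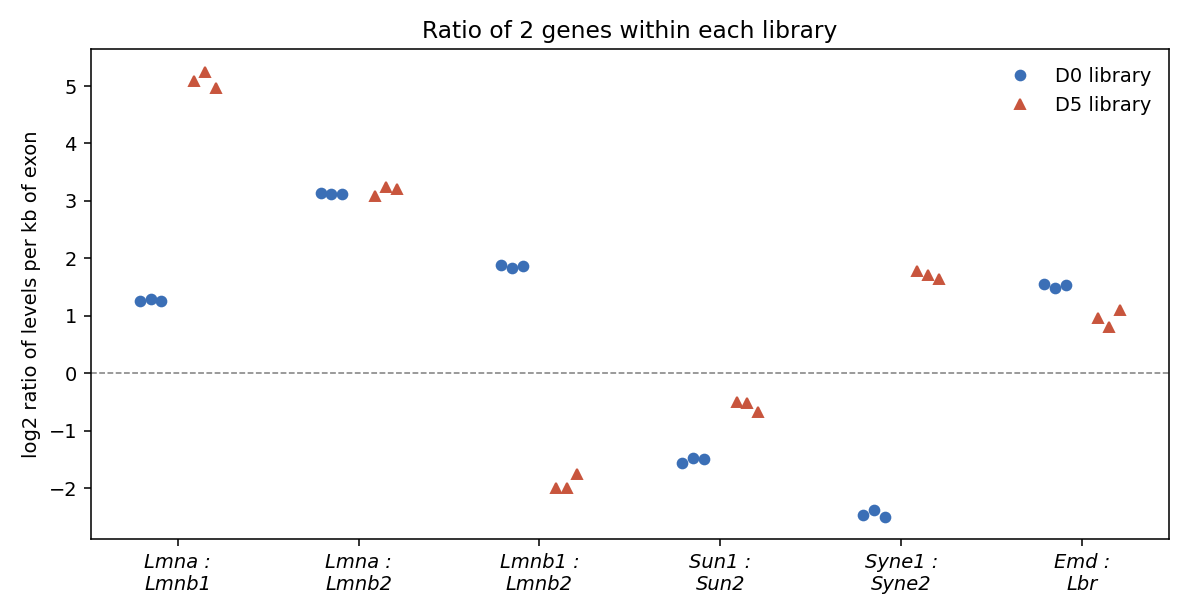
Log2 ratio of the levels per kilobase of exon of 2 genes (vertical axis) for 6 pairs (horizontal axis), in each D0 library (circles) and D5 library (triangles). The Syne1 to Syne2 ratio crosses 0 upwards, from a mean of -2.45 to 1.70, the Lmnb1 to Lmnb2 ratio crosses it downwards, and the Lmna to Lmnb2 ratio stays near 3.12 to 3.18.

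The order of the levels per kilobase changed as well. In myoblasts it ran from *Lmna* (180 ± 0.475 CPM per kilobase) over *Lmnb1* (74.9 ± 0.809), *Tmpo* (62.1 ± 0.218), *Emd* (36.5 ± 1.42), *Sun2* (31.5 ± 0.404), *Lmnb2* (20.7 ± 0.121) and *Lbr* (12.7 ± 0.204) to *Syne2* (11.1 ± 0.0743), *Sun1* (11.1 ± 0.321) and *Syne1* (2.04 ± 0.0845), each with SD and n = 3. *Syne2* and *Sun1* were the only neighbours whose libraries overlapped at D0. In myotubes *Lmna* (120 ± 3.01) was followed by *Sun2* (21.3 ± 1.18), *Sun1* (14.4 ± 0.312), *Emd* (14.04 ± 0.812) and *Lmnb2* (13.3 ± 0.549), of which *Sun1* and *Emd* overlapped and *Emd* and *Lmnb2* overlapped. *Tmpo* (10.8 ± 0.498), *Lbr* (7.25 ± 0.556), *Syne1* (5.48 ± 0.215), *Lmnb1* (3.52 ± 0.382) and *Syne2* (1.68 ± 0.0135) came last. At D5 the SUN genes thus stood directly below *Lmna*, and *Lmnb1*, the second highest at D0, was the ninth. Exonic length counts every annotated exon of a gene, 40491 bases for *Syne1*, 26726 for *Syne2*, 10998 for *Tmpo*, 7596 for *Sun1* and 5420 for *Sun2*. The level of a gene that is mostly expressed as short transcripts is therefore understated, and the order of the genes depends on these lengths.

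The scaling of the libraries moved all 10 values together. Without any scaling, that is on counts not corrected for the shallower D5 libraries, the median log2 fold change of all genes was -0.68, and after scaling to ERCC spike-ins, synthetic RNAs that took 0.720% to 2.09% of the counts, it was -0.58. The order of the 10 log2 fold changes was the same with each, and *Sun1* (-0.30 and -0.17) lay above the median of all genes in both. *Lmnb1*, *Syne2*, *Tmpo*, *Emd* and *Lbr* were lower past the threshold under every one of the 14 alternatives, with log2 fold changes between -5.09 and -4.33 for *Lmnb1*, between -3.41 and -2.72 for *Syne2*, between -3.21 and -2.50 for *Tmpo*, between -2.06 and -1.34 for *Emd* and between -1.49 and -0.77 for *Lbr*. *Syne1* stayed positive, between 0.74 and 1.45, but was not past the threshold with the spike-ins (0.87, edgeR adjusted p = 0.187). The spike-in share was 1.204%, 0.720% and 2.09% in D5 replicates 1, 2 and 3, and *Lmna*, *Lmnb2* and *Sun2*, at -1.15, -1.21 and -1.14 with this scaling, were not past the threshold either.

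**Figure D4:**
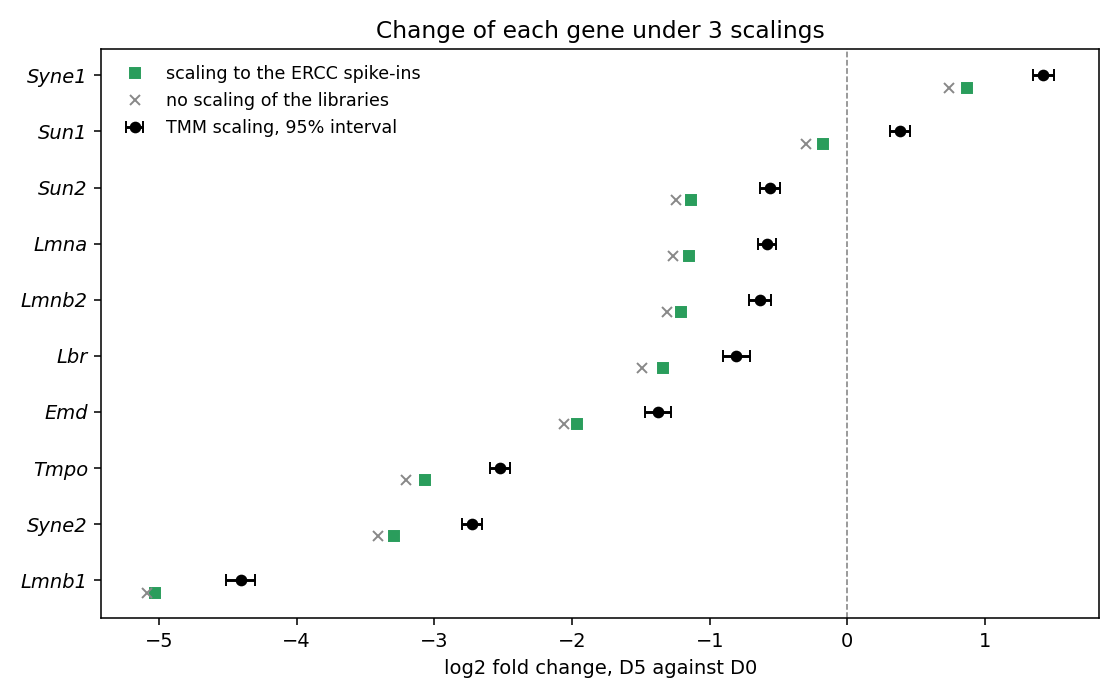
Log2 fold change of D5 against D0 (horizontal axis) for each gene (vertical axis) with TMM scaling (black points, bars for the 95% interval), with scaling to the ERCC spike-ins (squares) and without scaling (crosses). Squares and crosses lie to the left of the black point for every gene by a similar distance, and Sun1 is the gene for which they fall on the other side of 0.

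Other genes of the nuclear envelope were described by lists of the same processes. Their counts stand beside 42.2% of all genes called higher and 40.8% called lower, so that a high share of calls is common to genes at large and nothing is read from the counts about these lists. Of the 42 genes tested in these lists, 9 changed sign and 20 kept their direction but were not past the threshold with the spike-ins. Without scaling, which leaves the shallower depth of D5 in the values, 10 changed sign and 1 was not past the threshold. Of the 5 enzymes that process the lipid-modified tail of prelamin A and other CaaX proteins, 4 were lower and 1 was higher (median log2 fold change -0.33). *Zmpste24*, the protease that frees mature lamin A, went from 107 ± 1.24 CPM to 85.0 ± 4.44 CPM, and *Rce1* and *Fntb* had log2 fold changes of -0.64 and -0.55. *Fnta*, the shared alpha subunit of farnesyltransferase, was higher, with 85.3 ± 5.15 CPM at D5 after 50.01 ± 1.30 CPM at D0 (SD over 3 libraries each), though it was not past the threshold without scaling, and with the spike-ins none of the 5 was.

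Of the 7 genes for other LEM domain proteins and BAF, 6 were tested, 3 were higher and 2 lower (median 0.15), and *Banf2* had no count. *Ankle1*, a LEM domain nuclease, kept 4.28% of its D0 level, from 8.54 ± 0.350 CPM to 0.362 ± 0.0825 CPM (SD, n = 3 each), and *Banf1*, which encodes BAF, had a log2 fold change of -0.54 that was not past the threshold with the spike-ins. *Lemd1* had 1, 1 and 3 counts at D0, at or under the floor of 3 counts per library. Against that floor it was at least 46.8-fold higher at D5, with 3.52 ± 0.156 CPM (SD, n = 3). Of its exonic length, 27.3% overlaps other annotated exons on the same strand and 10.4% on the opposite strand, so part of its counts is uncertain. *Lemd2* (0.21) and *Ankle2* (0.41) were called higher with TMM and turned negative without scaling and with the spike-ins, and *Lemd3*, the gene of MAN1, was at 0.09 (edgeR adjusted p = 0.0855).

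Of the 7 other SUN and KASH genes, 4 had at most 2 counts in every library, and the other 3 had a median log2 fold change of 0.28. *Syne3*, the gene of nesprin-3 that binds plectin, had a D0 mean of 39.7 ± 2.47 CPM and a D5 mean of 48.5 ± 3.12 CPM (SD, n = 3 each), with a log2 fold change of 0.29 that turned negative without scaling and with the spike-ins. *Spag4* was lower (-0.81) and *Syne4* was not called (0.28, edgeR adjusted p = 0.484). *Sun1*, *Sun2*, *Syne1*, *Syne2* and *Syne3* were thus the SUN and KASH genes above 2 CPM in these cells.

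Torsins are ATPases of the nuclear envelope lumen. Of the 6 torsin and cofactor genes, 4 were higher and 2 lower (median 0.38), where 42.2% and 40.8% of all genes were. *Tor3a* went up 3.06-fold, from 21.4 ± 1.48 CPM to 65.5 ± 0.722 CPM (SD, n = 3 each). *Tor1aip1*, which encodes the torsin cofactor and lamin-binding protein LAP1, went up 1.80-fold, from 47.3 ± 1.14 CPM to 85.3 ± 2.05 CPM (SD, n = 3 each). Of the exonic length of *Tor1aip1*, 12.9% overlaps *Tor1aip2* on the opposite strand. None of the 6 was past the threshold with the spike-ins: *Tor3a* was at 1.06 (edgeR adjusted p = 0.103), *Tor1aip1* at 0.28 (edgeR adjusted p = 0.702), and *Tor1b* (0.41 with TMM) and *Tor1aip2* (0.34 with TMM) turned negative, as they did without scaling.

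Of 9 genes for transmembrane or lamin-binding proteins of the envelope, 4 were higher and 5 lower (median -0.10). *Tmem38a*, which encodes a cation channel of the muscle sarcoplasmic reticulum, rose 51.2-fold, from 12.4 ± 0.315 CPM to 633 ± 6.86 CPM (SD, n = 3 each). *Plpp7*, known as a muscle envelope protein, rose 10.8-fold and *Wfs1* 4.80-fold, and *Mlip*, a muscle lamin A interacting protein, had 1, 0 and 0 counts at D0 and was at least 10.1-fold higher at D5, with 0.764 ± 0.0876 CPM (SD, n = 3). *Nrm*, the gene of nurim, kept 13.2% of its D0 level, and *Tmem43*, *Nemp1*, *Tmem201* and *Tmem214* had log2 fold changes of -0.98, -0.57, -0.34 and -0.10. The calls of *Nemp1*, *Tmem201* and *Tmem214* were lost with the spike-ins, and that of *Tmem214* also with DESeq2 (adjusted p = 0.0576) and without D5 replicate 3 (-0.08, edgeR adjusted p = 0.0948).

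Among the partners of *Lbr*, the heterochromatin protein 1 genes *Cbx3*, *Cbx1* and *Cbx5* were lower, with log2 fold changes of -1.05, -0.60 and -0.17 (median of the 4 genes -0.39), of which *Cbx1* and *Cbx5* were not past the threshold with the spike-ins. *Tm7sf2*, the sterol reductase paralog of *Lbr*, was higher, from 3.56 ± 0.147 CPM to 22.6 ± 1.23 CPM (SD, n = 3 each), so the reductase genes differed in direction. Of the exonic length of *Tm7sf2*, 12.1% overlaps another gene on the same strand.

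Of 9 genes for cytoskeletal partners of LINC complexes, 5 were higher and 4 lower (median 0.22). *Akap6*, a scaffold that nesprin-1 alpha holds at the myotube nucleus, rose 4.82-fold, from 73.9 ± 0.904 CPM to 356 ± 17.9 CPM (SD, n = 3 each), in the same direction as *Syne1*. The kinesin-1 light chains *Klc1* and *Klc2*, with log2 fold changes of 0.92 and 0.61, and the heavy chain *Kif5b* at 0.54 were higher with TMM, *Klc2* turning negative without scaling and *Kif5b* in both of the other scalings. *Plec*, at 0.22, turned negative in both as well. The centrosomal genes *Pcnt*, *Pcm1* and *Akap9* were at -0.57, -0.28 and -0.15, and *Fhod1*, a formin that binds nesprin-2, kept 44.9% of its D0 level, in the direction of *Syne2*. With the spike-ins *Akap6* and *Fhod1* were the genes of this list past the threshold.

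**Figure D5:**
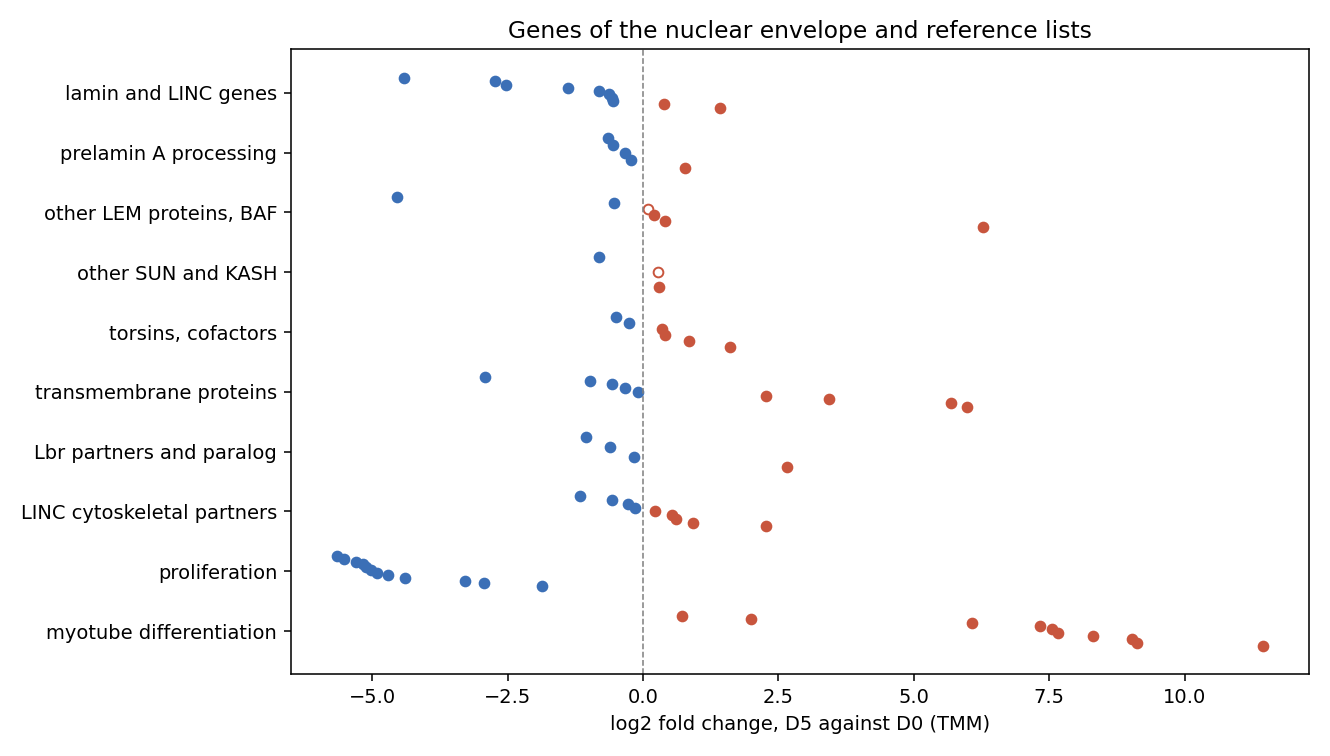
Log2 fold change of D5 against D0 with TMM scaling (horizontal axis) for each tested gene (points) of the lamin and LINC genes and of 9 lists (vertical axis). Filled points are past the adjusted threshold of 0.05, open points are not, red and blue mark higher and lower at D5, and Lemd1 and Mlip, at or under the floor of 3 counts at D0, are drawn at fitted values that are no bounds. The proliferation genes all lie at or below -1.87, a range that the lamin and LINC genes Lmnb1, Syne2 and Tmpo share. For Syne2 and Tmpo this holds only through the uppermost proliferation gene, the next lying at -2.95.

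The genes with the largest falls stood beside a fall of the cell cycle. The 12 proliferation genes summed to 2426, 2448 and 2421 CPM in D0 replicates 1, 2 and 3 and to 122, 135 and 124 CPM in D5 replicates 1, 2 and 3, which is 5.22% of the D0 level. *Lmnb1* kept 4.71%. Their log2 fold changes ran from -5.65 to -1.87. Those of *Lmnb1* (-4.41), *Syne2* (-2.73) and *Tmpo* (-2.53) lay inside this range and those of *Emd*, *Lbr*, *Lmnb2*, *Lmna* and *Sun2* lay outside it. The upper end of the range was set by a single gene. The next of the 12 lay at -2.95, below *Syne2* and *Tmpo*, so these were inside only through that gene. *Mki67* went from 703 ± 9.91 CPM to 20.3 ± 2.01 CPM (SD, n = 3 each). The files cover no time between D0 and D5, and the part of the cell cycle in the change of the lamin and LINC genes was not tested.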

How the data were processed

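The deposited files held whole-number read counts per gene for 3 D0 and 3 D5 libraries, which the authors made with featureCounts on reads aligned to GRCm38. The aligner is named differently in the labels (TopHat2) and in the methods (HISAT2), and the annotation release, strand setting and treatment of multimapping reads are not given in the sources used here. The unnamed row, equal to the column total, and 92 ERCC rows (0.720% to 2.09% of counts) entered neither library sizes nor tests. The counts passed filterByExpr, were scaled by TMM and were tested with edgeR 4.0.16 (quasi-likelihood test, R 4.3.3, Benjamini-Hochberg adjustment over 16290 genes, threshold 0.05), D5 against D0 without covariates. The procedure was tested on simulated counts in which few genes changed, equally many up and down. That test does not cover data in which 82.9% of genes are called, or the choice of scaling. Exonic lengths and positions came from GENCODE vM21 (GRCm38), with lengths matched by gene ID without version for 54488 of 54525 genes, and promoters from RefSeq (GRCm38.p6). Ratios were compared with an exact permutation test. Replicates differed by more than sampling noise (chi-square per degree of freedom 2.28 to 3.71). All members and any gene of the envelope lists could be named, and of the proliferation, myotube and other-cell lists up to 4 by highest mean CPM; the markers at 0 or 1 count were named after their values were seen. Members and lists were chosen with earlier results of these data known. Alternatives were DESeq2 1.42.0, other scalings and filters, a replicate block and each library left out. The summed level of the neural and glial list is not reported here.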

Additional observations from a re-analysis of the deposited data

How the results depend on the processing

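Over the 10 genes and 14 alternatives each, 134 of 140 log2 fold changes kept their direction and their side of the threshold, 4 kept the direction alone and 2 reversed. *Sun1* reversed to -0.30 without scaling and to -0.17 with the ERCC spike-ins. With the spike-ins, *Lmna* (-1.15), *Lmnb2* (-1.21), *Sun2* (-1.14) and *Syne1* (0.87) were not past the threshold, so 5 genes were called lower and 0 higher, and 5560 genes were called in all against 13510; the cause was not tested. Without scaling 1 gene was called higher. Other alternatives called 11494 to 15274 genes, and leaving out each library 13236 to 13599, with 2 members higher and 8 lower each time. Whether the replicate numbers pair the libraries was not settled. Same-numbered libraries correlated in their deviations from the group means at 0.0223, 0.123 and 0.057, and differently numbered ones at -0.0803 to 0.0231. Each D0 library correlated best with the D5 library of its own number. D5 replicate 1 did not, being at 0.0231 with D0 replicate 3 and 0.0223 with D0 replicate 1. With the replicate block 13558 genes were called, with 2 members higher and 8 lower. Among the 42 other envelope genes, *Tmem214* was not past the threshold with DESeq2 or without D5 replicate 3, *Syne4*, not called, reversed without D0 replicate 3, and 20 lost the call and 9 reversed with the spike-ins. Groups of 3 libraries limit the ratio tests to p = 0.1 (exact permutation test), and intervals cover the spread between these libraries.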
